A study of Homo sapiens with 6 samples.

Results

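This account covers 9 genes that detect viral RNA or carry the interferon signal: the RNA sensor genes DDX58 and IFIH1, the adaptor gene MAVS, the transcription factor genes IRF1, IRF3, IRF7, IRF9 and STAT2, and the kinase gene JAK1. They were chosen by symbol from the 23354 genes of the read-count table, and all 9 were found. At least 1 read was counted for 8 of them, and the same 8 passed the filter on low counts that left 13466 genes for testing. IRF9 had no read in any library and could not be tested. LNCaP cells, an established line from a human prostate cancer, were treated for 48 h in both groups. The DHT group received dihydrotestosterone, an androgen, at 1 nM. The DHT+WBM group received the same androgen at 1 nM together with WBM, an extract of the white button mushroom, at 3 µL/mL. Each group had 3 libraries, and both carried the androgen, so no androgen-free baseline enters these values. Whether the DHT cells were given a vehicle in place of the extract is not given in the sources used here.

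RIG-I, the product of DDX58, and MDA5, the product of IFIH1, are helicases that bind double-stranded RNA in the cytosol. Both signal through MAVS on the outer mitochondrial membrane to kinases that activate IRF3 and IRF7, which switch on interferon genes. Secreted type I interferon then acts through receptor-bound JAK1 and TYK2, which phosphorylate STAT proteins. STAT2 and IRF9 are parts of ISGF3, the complex that turns on interferon-stimulated genes, among them DDX58, IFIH1, IRF7 and STAT2 themselves. IRF1 is induced mainly through STAT dimers and NF-kB. LNCaP has been described as lacking JAK1 and as responding poorly to interferon.

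The libraries held 19127357 to 21490953 counts. All 11 markers of prostate epithelium were present at 1 CPM or more (CPM, counts scaled to a common library size, here with TMM factors). Their summed level was 6740 to 7000 CPM in DHT and 4760 to 4900 CPM in DHT+WBM. In bulk RNA, fewer cells of a type and less RNA per cell cannot be told apart, but these markers did not move together. KLK3, the PSA gene, fell by 1.45 on the log2 scale (SE 0.039), while the epithelial genes KRT18, EPCAM, CDH1 and KRT8 stood at 0.0099, -0.037, 0.071 and 0.20 (SE 0.040 to 0.044), of which KRT8 was called. The 8 immune markers summed to 26.3 to 29.4 CPM in DHT and 88.9 to 97.0 CPM in DHT+WBM. Most of that sum was CD68, a lysosomal membrane protein gene, at 23.0 CPM in DHT and 84.5 CPM in DHT+WBM. ITGAM, CD8A and LYZ were also called higher, at 1.14, 0.51 and 0.45 on the log2 scale (edgeR adjusted p = 0.000369, 0.00793 and 0.0302), at 3.60 CPM or less in either group mean. The defining leukocyte genes PTPRC, CD3E and CD14 each had 3 reads over the 6 libraries. The part of the marker differences in the members' values was not tested. The 8 stromal and endothelial markers summed to at most 20.6 CPM in DHT and 17.6 CPM in DHT+WBM, with COL1A2 and CDH5 at 0.

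In DHT+WBM, both RNA sensor genes fell while the adaptor gene MAVS and 3 of the IRF genes rose, and STAT2 was not called. DDX58 was 1.87-fold lower and IFIH1 1.27-fold lower, whereas IRF1 was 1.43-fold higher. MAVS, IRF3 and IRF7 rose by 1.12-fold, 1.11-fold and 1.18-fold. JAK1 was detected at a low level in every library, and its fall was not called when DHT replicate 1 was left out. The calls of IRF3 and IRF7 were each lost in several alternatives too. In the quasi-likelihood test of edgeR, adjusted by Benjamini-Hochberg over all tested genes, 7 of the 8 tested members had an adjusted p under 0.05, 4 higher and 3 lower. DESeq2, and edgeR without DHT+WBM replicate 3, called 4 members: DDX58, IFIH1, MAVS and IRF1. Of all tested genes 58.2% were called, 29.2% higher and 29.0% lower, so a call was common in this comparison. That even split depends on the scaling: with library totals alone 4675 genes were called higher and 3200 lower, and with upper-quartile factors 4426 and 3403. In 6 of the 8 members the libraries of the groups did not overlap, against 62.2% of all tested genes. The median log2 fold change of the 8 was 0.073, beside 0.00286 over all tested genes. Their median absolute log2 fold change was 0.29, beside 0.21 over all. DDX58 and IRF1 were the 2 called members whose change reached 0.5 on the log2 scale, a size that 17.9% of all genes reached with a call.

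**Figure D1:**
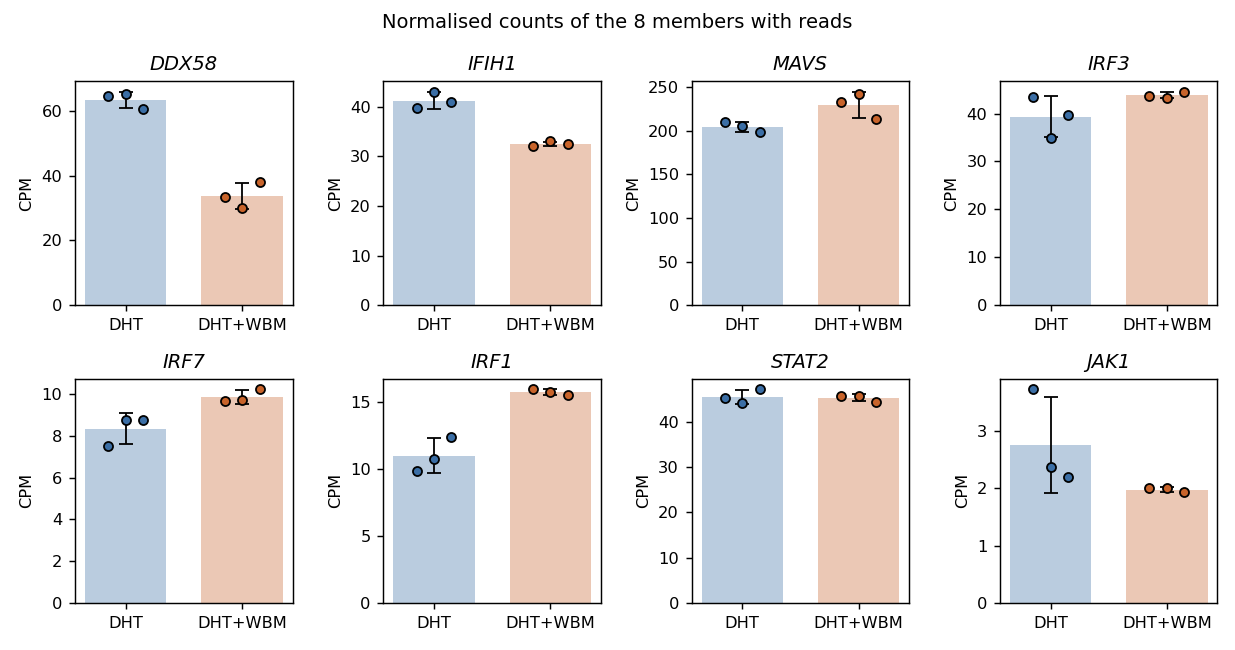
Level of each of the 8 members with reads, in TMM-scaled CPM on axes that start at 0. Points are single libraries, bars are group means and whiskers are the SD (n = 3). DDX58 runs from 60.6 to 65.0 CPM in DHT and from 30.1 to 37.9 CPM in DHT+WBM, and in JAK1 a single DHT library at 3.72 CPM lies above the other 5.

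The sensors come first in the pathway. DDX58 (chromosome 9, 32455300 to 32526322, minus strand, hg19) had 1354, 1292 and 1243 reads in the DHT libraries (replicates 1 to 3, the order used throughout) and 682, 586 and 824 in the DHT+WBM libraries. Every DHT library lay above every DHT+WBM library, with no overlap on the CPM scale. The mean went from 63.4 ± 2.45 CPM to 33.7 ± 3.95 CPM (SD, n = 3). The log2 fold change was -0.91 with an SE of 0.059 and an edgeR adjusted p of 3.91e-16. Among all tested genes, 412 had a more negative log2 fold change. IFIH1 (chromosome 2, 163123589 to 163175218, minus strand) had 831, 855 and 840 reads in DHT and 660, 643 and 705 in DHT+WBM. Its libraries did not overlap either. The mean went from 41.2 ± 1.69 to 32.5 ± 0.43 CPM. On the log2 scale the difference was -0.34 with an SE of 0.055 and an edgeR adjusted p of 1.85e-06.

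Whether the sensor genes fell by different amounts was read from their ratio in each library. Per base of transcript, DDX58 stood at 1.32, 1.22 and 1.19 times IFIH1 in the DHT libraries. In the DHT+WBM libraries the ratio was 0.834, 0.736 and 0.944. On this scale DDX58 was thus the more abundant of the pair in each DHT library and the less abundant in each DHT+WBM library. The order in DHT+WBM depends on the deposited gene lengths. Unscaled reads of DDX58 and IFIH1 there were 682 and 660, 586 and 643, and 824 and 705 in replicates 1 to 3. The mean log2 ratio differed by -0.58 between the groups, and the exact permutation test, two-sided, gave p = 0.1, the smallest that 3 against 3 libraries allow, so the test could not pass 0.05. Adjusted over the 2 ratios tested, p was 0.2 by the same exact permutation test.

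The DNA just upstream of both sensor genes and of IRF1 is shown because the sensor genes fell together and IRF1 had the largest rise. The windows are the 250 bases upstream in the RefSeq table (GRCh38.p14). DDX58 stands in that table under its newer symbol RIGI. Each line gives the 250 bases before the start of the gene, 5′ to 3′ on the gene's own strand, which is minus in all 3. Capitals mark matches on either strand to 4 patterns. They are GAAANNGAAA and GAAANGAAA, spaced repeats of the core that IRF proteins and ISGF3 contact, TTCNNNGAA, the GAS element of STAT dimers, and the NF-kB consensus.
DDX58, chr9:32526197-32526446: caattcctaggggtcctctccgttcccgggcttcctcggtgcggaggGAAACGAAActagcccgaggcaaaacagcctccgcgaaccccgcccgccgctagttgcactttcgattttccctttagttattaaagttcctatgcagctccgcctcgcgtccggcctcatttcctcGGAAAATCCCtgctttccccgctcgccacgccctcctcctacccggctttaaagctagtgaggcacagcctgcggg
IFIH1, chr2:162318685-162318934: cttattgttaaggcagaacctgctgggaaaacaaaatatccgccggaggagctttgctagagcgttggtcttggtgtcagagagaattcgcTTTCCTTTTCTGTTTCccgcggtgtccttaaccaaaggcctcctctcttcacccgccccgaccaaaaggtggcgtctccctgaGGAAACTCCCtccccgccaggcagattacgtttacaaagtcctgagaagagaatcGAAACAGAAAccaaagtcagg
IRF1, chr5:132490774-132491023: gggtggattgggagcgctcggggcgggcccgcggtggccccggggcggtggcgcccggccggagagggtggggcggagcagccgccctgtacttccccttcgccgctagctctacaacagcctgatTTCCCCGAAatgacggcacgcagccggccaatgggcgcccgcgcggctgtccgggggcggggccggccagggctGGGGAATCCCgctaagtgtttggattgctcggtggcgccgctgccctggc

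The DDX58 window held GAAACGAAA, 203 to 195 bases before the start, and an NF-kB match 76 to 67 bases before it. The IFIH1 window held GAAACAGAAA, 21 to 12 bases before the start, 2 overlapping matches to GAAANNGAAA on the opposite strand between 159 and 144 bases before it, and an NF-kB match at 76 to 67. The IRF1 window held no GAAA repeat of either spacing. It held the GAS match TTCCCCGAA, 124 to 116 bases before the start, and the NF-kB match GGGGAATCCC, 50 to 41 before it. Among 35116 such windows of all genes, 5.48% held a GAAA repeat of either spacing, 6.57% held a GAS match and 5.21% an NF-kB match. The windows of MAVS and STAT2 and the 3 listed for JAK1 held none of the 4 patterns, and that of IRF9 held a GAS match alone. IRF3 and IRF7 have no window here. These are matches of letters and were not tested for binding.

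MAVS (chromosome 20, 3827446 to 3856770, plus strand), the adaptor on which both sensors converge, had 4395, 4070 and 4064 reads in DHT and 4782, 4724 and 4625 in DHT+WBM. Each DHT+WBM library was above each DHT library in CPM. The nearest pair, at 209.8 CPM in DHT replicate 1 and 212.8 CPM in DHT+WBM replicate 3, were close together. The mean went from 204 ± 5.88 to 229 ± 15.1 CPM. This gave a log2 fold change of 0.17 with an SE of 0.042 and an edgeR adjusted p of 0.000883.

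IRF3, the factor that is present before infection and is activated by phosphorylation, moved little. IRF3 (chromosome 19, 50162826 to 50169132, minus strand) had 910, 695 and 815 reads in DHT and 897, 843 and 968 in DHT+WBM. The groups overlapped, since DHT replicate 1, at 43.4 CPM, lay within the DHT+WBM range of 43.3 to 44.6 CPM. The log2 fold change was 0.15 with an SE of 0.060 and an edgeR adjusted p of 0.0258. Without DHT replicate 2, the lowest library, it was 0.075 (edgeR adjusted p = 0.258). The call was also lost without DHT+WBM replicate 1 or 3 and in DESeq2, and over all alternatives the adjusted p ran from 0.00206 to 0.258. At its 5′ end the IRF3 span overlaps BCL2L12 on the opposite strand by 734 bases, and that gene went the other way, from 15.9 to 9.95 CPM (log2 fold change -0.67, SE 0.081). Whether counting used strand is not given in the sources used here, and the part of shared reads in the IRF3 value was not tested.

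IRF7 (chromosome 11, 612555 to 615999, minus strand), the relative of IRF3 that interferon itself induces, had 157, 174 and 180 reads in DHT and 198, 189 and 222 in DHT+WBM. In CPM the DHT libraries, at 7.49 to 8.77, lay below the DHT+WBM libraries, at 9.65 to 10.2. Its log2 fold change was 0.24 with an SE of 0.095 and an edgeR adjusted p of 0.0272. Without DHT replicate 1, the lowest library, it was 0.17 (edgeR adjusted p = 0.163), and the call was also lost without DHT+WBM replicate 3 and in DESeq2, with adjusted p from 0.00899 to 0.163 over all alternatives. Per base, IRF7 stood at 0.287 times IRF3 in DHT and 0.304 times in DHT+WBM. That ratio overlapped between the groups (exact permutation p = 0.8, two-sided).

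IRF1, a factor that acts on interferon genes and on many interferon-gamma targets, showed the largest rise of the members. IRF1 (chromosome 5, 131776132 to 131831259, minus strand) had 206, 213 and 254 reads in DHT and 327, 306 and 337 in DHT+WBM. Its libraries did not overlap, and the DHT+WBM libraries lay between 15.5 and 15.9 CPM. The mean went from 11.0 ± 1.29 to 15.7 ± 0.21 CPM. The log2 fold change was 0.52 with an SE of 0.084 and an edgeR adjusted p of 1.97e-06. The noncoding gene C5orf56 covers 84.2% of the IRF1 span on the opposite strand. It had 13 to 23 reads per library, far fewer than IRF1.

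STAT2 (chromosome 12, 56735382 to 56754037, minus strand), the STAT protein gene most tied to ISGF3, had 948, 876 and 967 reads in DHT and 939, 889 and 964 in DHT+WBM. The groups overlapped, at 44.1 to 47.1 CPM in DHT and 44.4 to 45.8 CPM in DHT+WBM. The log2 fold change was -0.0082 with an edgeR adjusted p of 0.902 and a 95% interval of -0.11 to 0.096.

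IRF9, the DNA-binding part of ISGF3, was listed at 0 reads in all 6 libraries. In the deposited table IRF9 spans chromosome 14, 24629729 to 24635774 on the plus strand. RNF31, a ubiquitin ligase gene, is listed there from 24616096 to 24635774 on the same strand, so it covers 100% of the IRF9 span and ends at the same base. RNF31 had 396 to 460 reads per library (log2 fold change -0.12, SE 0.066, edgeR adjusted p = 0.115). How reads falling within both genes were counted is not given in the sources used here, and the part of this overlap in the value of 0 was not tested. The ratio of STAT2 to IRF9 could not be formed.

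JAK1 transcript was detected in every library, at a low level. JAK1 (chromosome 1, 65298906 to 65432619, minus strand) had 78, 47 and 45 reads in DHT and 41, 39 and 42 in DHT+WBM. Per kilobase this was 0.721, 0.458 and 0.425 RPKM (CPM divided by gene length in kb) in DHT and 0.387, 0.388 and 0.374 RPKM in DHT+WBM. Its mean RPKM stood at percentile 33.5 of the genes with any read. RNA counts do not measure the protein, and reads do not show whether the transcripts were intact.

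The kinases that share JAK1's role gave a scale for that level. TYK2, its partner at the type I interferon receptor, stood at 8.91 ± 0.59 RPKM in DHT and 10.3 ± 0.29 RPKM in DHT+WBM (SD, n = 3), or 16.7 and 26.8 times JAK1. JAK2, which pairs with JAK1 at the interferon-gamma receptor, stood at 5.15 ± 0.24 and 4.71 ± 0.30 RPKM, or 9.64 and 12.3 times JAK1. JAK3, a kinase of lymphoid cells, had 8 reads in all. JAK1, with 292 reads over the 6 libraries, was therefore well below TYK2 and JAK2 and above JAK3. Of these kinases TYK2 rose by 0.20 on the log2 scale (SE 0.054, edgeR adjusted p = 0.00163). JAK2 was not called, at -0.13 (edgeR adjusted p = 0.0826, 95% interval -0.26 to 0.000799).

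JAK1 was lower in DHT+WBM, at 1.98 ± 0.04 CPM against 2.76 ± 0.84 CPM (SD, n = 3). That was a log2 fold change of -0.49 with an SE of 0.19 and an edgeR adjusted p of 0.0293. The groups did not overlap, but DHT replicate 1, at 3.72 CPM, stood above DHT replicates 2 and 3, at 2.37 and 2.19 CPM. Without DHT replicate 1 the log2 fold change was -0.21 (edgeR adjusted p = 0.404). The call was also lost without DHT+WBM replicate 1 or 3, in limma-voom and in DESeq2, and over all alternatives the adjusted p ran from 0.00664 to 0.404. RAVER2 on the opposite strand, with 504 to 564 reads per library, overlaps the JAK1 span by 9 bases. The deposited table also lists genes with spans of many megabases that cover members whole. For JAK1 these are LOC100133331 on the same strand, with 2 to 8 reads per library, and LOC100132062 on the opposite strand, with 0 reads. For IFIH1 it is MIR1244-2 on the opposite strand, with 0 to 1 reads, and for IRF3 it is SNAR-A3 on the same strand, with 0 reads. The part of these overlaps in the members' counts was not tested.

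**Figure D2:**
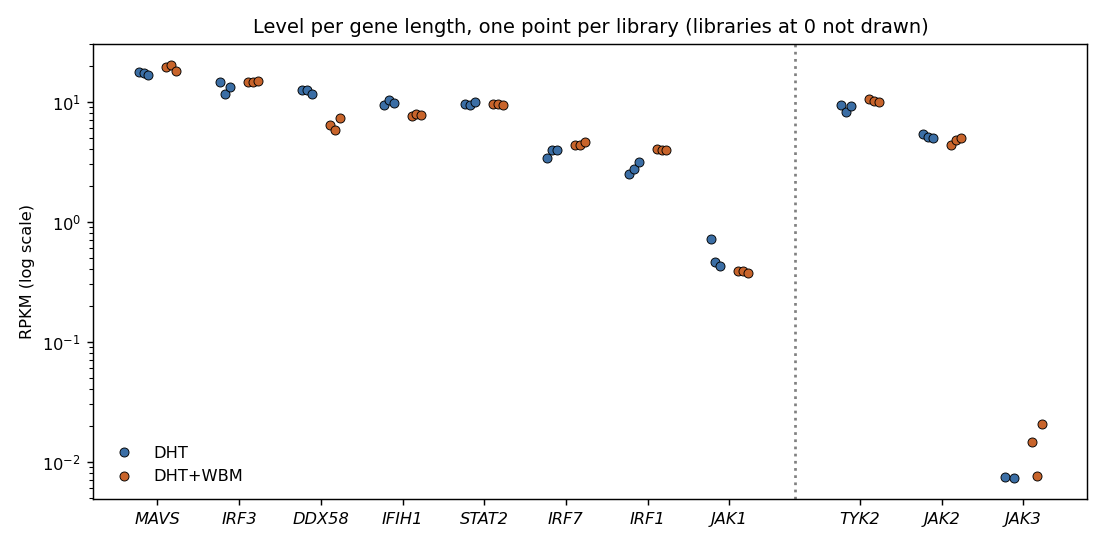
Level per gene length in RPKM on a log axis, one point per library, for the 8 members with reads and, right of the dotted line, the other JAK family genes. JAK1 lies between 0.374 and 0.721 RPKM, below TYK2 and JAK2 in every library, while JAK3 rests on 8 reads in all.

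Per gene length, the members in DHT ran from MAVS at 17.1 ± 0.49 RPKM through IRF3 at 13.1 ± 1.42, DDX58 at 12.2 ± 0.47, IFIH1 at 9.81 ± 0.40, STAT2 at 9.58 ± 0.32, IRF7 at 3.77 ± 0.33 and IRF1 at 2.79 ± 0.33 to JAK1 at 0.534 ± 0.16 RPKM (SD, n = 3). Libraries of IRF3 and DDX58 overlapped in DHT, and so did those of IFIH1 and STAT2, while the other neighbours in that order did not. In DHT+WBM no neighbours of the same list overlapped. There DDX58, at 6.48 ± 0.76 RPKM, stood below both IFIH1, at 7.74 ± 0.10, and STAT2, at 9.53 ± 0.16. The step from IRF3 to DDX58 went from 1.08-fold to 2.26-fold. JAK1 was the lowest of the 8 in both groups.

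The other genes of the pathway were described from lists chosen by function. For scale, 58.2% of all tested genes were called, 29.2% higher and 29.0% lower. Of 14 other RNA sensors and cofactors, 7 were called lower, 5 higher and 2 not at all (median log2 fold change -0.15). The largest changes were falls in DDX60, a helicase linked to RIG-I signalling, from 74.0 ± 8.08 to 15.7 ± 0.89 CPM, and in DHX58, the gene of the third RIG-I-like helicase LGP2, from 3.99 ± 0.47 to 1.35 ± 0.41 CPM. With DDX58 and IFIH1, all 3 RIG-I-like receptor genes were thus lower. Of 19 adaptors and kinases between MAVS and IRF3, 8 were called higher, 4 lower and 7 not at all (median 0.078). The share called in either direction was near that of all tested genes. IKBKE, a kinase that phosphorylates IRF3 and IRF7, rose from 12.1 ± 1.28 to 17.2 ± 1.40 CPM, and TANK, a scaffold for that kinase, from 23.9 ± 1.87 to 34.0 ± 0.71 CPM.

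The ligand genes had almost no reads. Of 21 interferon genes, 18 had no read in any library, which allows a level of up to 0.140 to 0.157 CPM per library (3 counts of its total, counting error only). IFNB1 had 0, 1 and 1 reads in DHT and 0, 2 and 0 in DHT+WBM. IFNL1 had 2, 1 and 2 reads in DHT and 0, 1 and 0 in DHT+WBM, and IFNL3 had 1 read in all. No change in these genes was detectable at this depth.

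Of 5 tested receptor subunits, 3 were called higher and 2 not at all (median log2 fold change 0.17), a share of calls near the 58.2% of all tested genes. Both chains of the interferon-gamma receptor were among the 3: IFNGR1 went from 122.8 ± 6.26 to 229.3 ± 8.76 CPM and IFNGR2 from 41.4 ± 0.13 to 52.5 ± 2.08 CPM. The type I receptor genes IFNAR1 and IFNAR2 did not pass, with log2 fold changes of -0.0015 and 0.098 (edgeR adjusted p = 0.977 and 0.295), and IFNLR1 had 2 reads in all. Of 7 other JAK and STAT genes tested, TYK2 rose and 6 did not pass. Of 3 other IRF genes tested, IRF5, with a role in Toll-like receptor signalling, rose from 9.79 ± 0.40 to 16.4 ± 0.84 CPM. IRF4 and IRF8, factors of immune cells, had 2 reads and 1 read in all.

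Output genes of the pathway were mostly lower, as the sensors were. Of 27 tested interferon-stimulated genes, 18 were called lower, 5 higher and 4 not at all (median log2 fold change -0.55). Among all tested genes 29.0% were called lower and 29.2% higher. OASL and IFIT2, at -4.42 and -4.11, fell the most and further than any member. Some of these genes were in the list that an earlier analysis of the same libraries used, and this count is no independent evidence of their direction. Among 84 pathway genes of at least 5 CPM, the profile over the 6 libraries closest to DDX58 was that of OAS3, an oligoadenylate synthetase gene, with a root mean square difference of 0.107 in log2 CPM after centring. The closest to IFIH1 was EIF2AK2, the gene of the RNA-activated kinase PKR, at 0.0384. TANK was closest to IRF1 at 0.0436, PARP9 to IRF7 at 0.0614, TYK2 to IRF3 at 0.0552, PIAS2 to MAVS at 0.0472 and ZC3HAV1 to JAK1 at 0.210. A similar fold change alone can bring profiles close on this measure, and shared regulation was not tested.

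**Figure D3:**
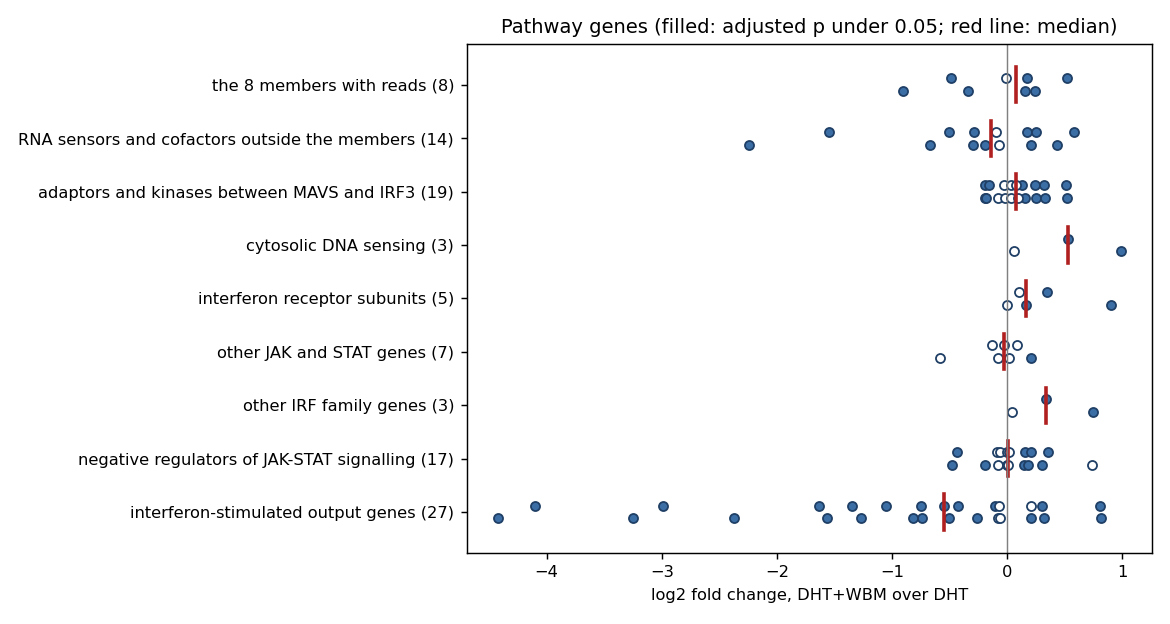
Log2 fold change, DHT+WBM over DHT, of each tested gene in the members and in 8 pathway lists, 1 point per gene, with the number of genes in brackets. Filled points passed the edgeR test, and red lines are medians. The interferon-stimulated genes reach -4.42 with a median of -0.55, while the members lie between -0.91 and 0.52.

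**Figure D4:**
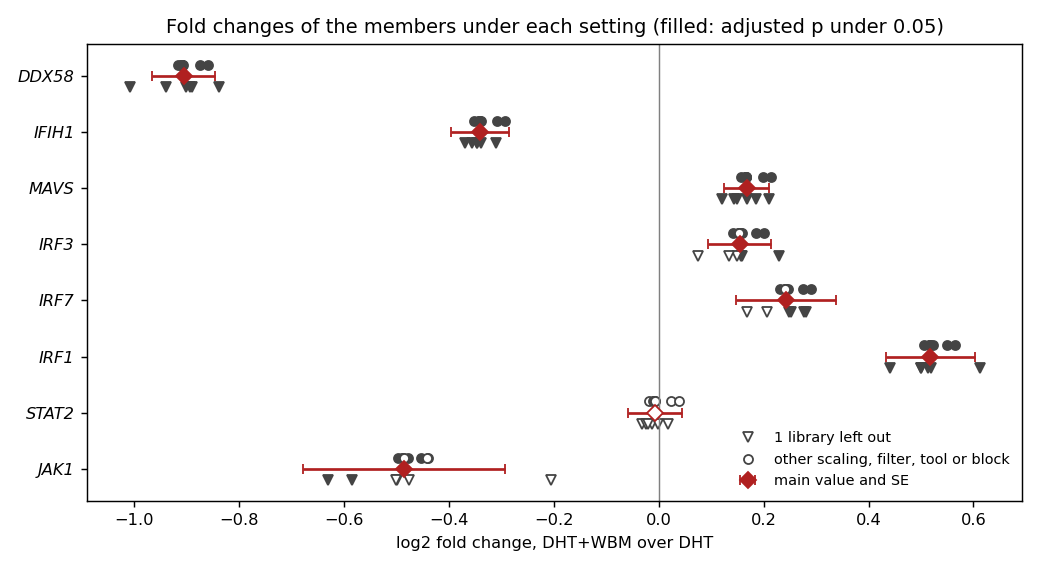
Log2 fold change of each member, with its SE, under the main settings (red) and each alternative (grey). Filled symbols have an adjusted p under 0.05. DDX58, IFIH1, MAVS and IRF1 stay filled throughout, IRF3, IRF7 and JAK1 have open symbols, and JAK1 moves to -0.21 without DHT replicate 1.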

How the data were processed

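RNA sequencing libraries of LNCaP cells, 3 per group, were grouped by their titles. The authors deposited raw counts of reads per gene with hg19 positions and gene lengths in kb, which were used here for RPKM. Per the submitters' processing notes, edgeR 3.28.1, HTSeq 0.6.0, STAR 2.6.0 and bcl2fastq 2.18.0.12 were used, in roles that are left unsaid. Annotation and strand setting: not given in the sources used here. Reads in overlapping genes or near-identical copies can therefore be lost or miscredited.

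Counts were fitted in R 4.3.3 with edgeR 4.0.16: filterByExpr (minimum count 10, minimum total 15), TMM factors of 0.979 to 1.02, and the quasi-likelihood F-test, two-sided, with Benjamini-Hochberg adjustment over 13466 genes and a threshold of 0.05. SE were derived from the F statistic. Whether the libraries came from separate cultures is unstated, and p-values measure the spread between libraries alone, which may be technical. Replicates differed by more than sampling noise in every pair. Ratios of members used counts per deposited length.

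Alternatives were RLE and upper-quartile factors, library totals, no filter, a filter of 1 CPM in 3 libraries, DESeq2 1.42.0, limma-voom (limma 3.58.1), a replicate block and each library left out. The fit was tested on simulated data. Members and lists were chosen with earlier results of these data known. All members were named, with the 2 called genes of largest change per list (mean of at least 1 CPM), JAK2 and TYK2, interferon genes with a read, and the closest profile per called member. Genes named as neighbours, exceptions or background were chosen after their values were seen. A few list genes are not reported here by name.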

Additional observations from a re-analysis of the deposited data

How the results depend on the processing

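Over the 14 alternatives, DDX58 (-1.01 to -0.84), IFIH1 (-0.37 to -0.29), MAVS (0.12 to 0.21) and IRF1 (0.44 to 0.61) kept their direction and their call. DESeq2 called 4 members, losing IRF3 at 0.15, IRF7 at 0.24 and JAK1 at -0.49 (adjusted p = 0.0757, 0.112 and 0.114), and limma-voom lost JAK1 at -0.44 (adjusted p = 0.0578). Leaving out 1 library gave 4 to 7 called members, the lowest without DHT+WBM replicate 3. STAT2 changed sign with upper-quartile factors (0.024), library totals only (0.038) and without DHT replicate 3, ran from -0.032 to 0.017 with 1 library left out, and was not called under any. The cause was not tested. The DDX58 over IFIH1 log2 ratio difference ran from -0.66 to -0.49 with 1 library left out, and that of IRF7 over IRF3 from -0.065, without DHT replicate 1, to 0.20. TPM, another scale, put JAK1 at 1.58 in DHT and 1.18 in DHT+WBM. Genes called numbered 6655 to 8109 over all alternatives.

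Whether same-numbered libraries were paired is not given in the sources used here. Their deviations from the group means correlated at 0.0498, 0.0374 and 0.0192, and 3 of 6 libraries correlated best with their own number. With the replicate block 8109 genes and 7 members were called, and the paired sign-flip permutation, exact, gave p = 0.25 for DDX58 over IFIH1, the smallest 3 pairs allow. The planned ratio of STAT2 over IRF9 was not run, since IRF9 had no read. Depth limits JAK1, at 39 to 78 reads per library, and the interferon genes.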

Other observations

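Genes of cytosolic DNA sensing, the arm parallel to the RNA sensors, were partly without reads. MB21D1, the gene of the sensor cGAS, and AIM2 had 0 reads in every library, ZBP1 had 1 read and TREX1 10 reads in all. Of the 3 tested genes, IFI16, a nuclear DNA sensor gene, rose from 4.29 ± 0.68 to 8.52 ± 0.60 CPM (SD, n = 3), and TMEM173, the gene of the adaptor STING, from 2.09 ± 0.50 to 3.00 ± 0.34 CPM. SAMHD1 was not called, at 0.059 on the log2 scale (edgeR adjusted p = 0.229). Of 17 tested negative regulators of JAK-STAT signalling, 6 rose, 3 fell and 8 did not pass. The share called in either direction was near the 58.2% of all tested genes. ISG15 and SOCS2 fell by 0.48 and 0.44 on the log2 scale, and USP18, which restrains the type I receptor, was not called, at -0.089 (edgeR adjusted p = 0.478).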
